A study of Ovis aries with 42 samples.

Results

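The features described here are 5 sheep Ensembl gene IDs, out of 27054 in the count table. Their mean RNA level in the pars tuberalis was lower or higher in follicular ewes than in another reproductive phase. They are ENSOARG00000017381, ENSOARG00000011149, ENSOARG00000014391, ENSOARG00000016672 and ENSOARG00000026014. They were chosen by their measured values: the first 3 had the lowest p of 16301 features in the follicular against anestrous comparison of the pars tuberalis, and the last 2 had the lowest p in the luteal against follicular comparison. The phase differences in that tissue are therefore given as a description, without a test. The hypothalamus libraries had no part in the choice, and the phases were tested there. No label says whether they come from the same ewes, so those tests may not be independent of the choice.

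RNA was sequenced from the pars tuberalis (PT) and the hypothalamus (HT) of adult ewes of the Rasa Aragonesa breed in 3 phases: luteal, follicular and anestrous. Each combination of tissue and phase had 7 libraries, so that there were 42 in 6 groups. All groups share sex, breed and stage, and the labels name no treatment. No label says which ewe a library came from, so p-values measure the spread between these samples, and it is not known whether a PT and an HT library come from the same ewe. Levels are given in CPM, that is counts scaled to a common library size. The libraries held 14649356 to 37726207 counts.

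The pars tuberalis is the part of the pituitary gland that surrounds the pituitary stalk. It carries melatonin receptors and signals day length to the neighbouring hypothalamus through thyrotropin, by which it takes part in seasonal breeding. The hypothalamus drives the gonadotrophs of the pituitary through gonadotropin-releasing hormone. In the follicular phase oestradiol from growing follicles rises and progesterone is low, in the luteal phase progesterone from the corpus luteum is high, and in anestrus the ovary does not cycle. No source used here pairs the 5 IDs with gene names (0 of 5 matched the reference gene table), so the features are given by ID and their roles are not described. For the same reason the tissue labels could not be checked against marker genes.

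All 5 features had counts in all 42 libraries. The fewest were those of ENSOARG00000016672, with 30 to 444 counts per library, and the most were those of ENSOARG00000017381, with 779 to 2815. In the follicular PT, 4 of the 5 features lay below the mean of both other phases and ENSOARG00000014391 lay above it. The luteal and the anestrous PT means thus lay on the same side of the follicular PT mean for each of the 5. Both comparisons share the follicular PT libraries that chose the features, so this shared side is a description and nothing is read from it. The features differed in which of these phases lay farther away: anestrus for ENSOARG00000017381, ENSOARG00000011149 and ENSOARG00000014391, and the luteal phase for ENSOARG00000016672 and ENSOARG00000026014.

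**Figure D1:**
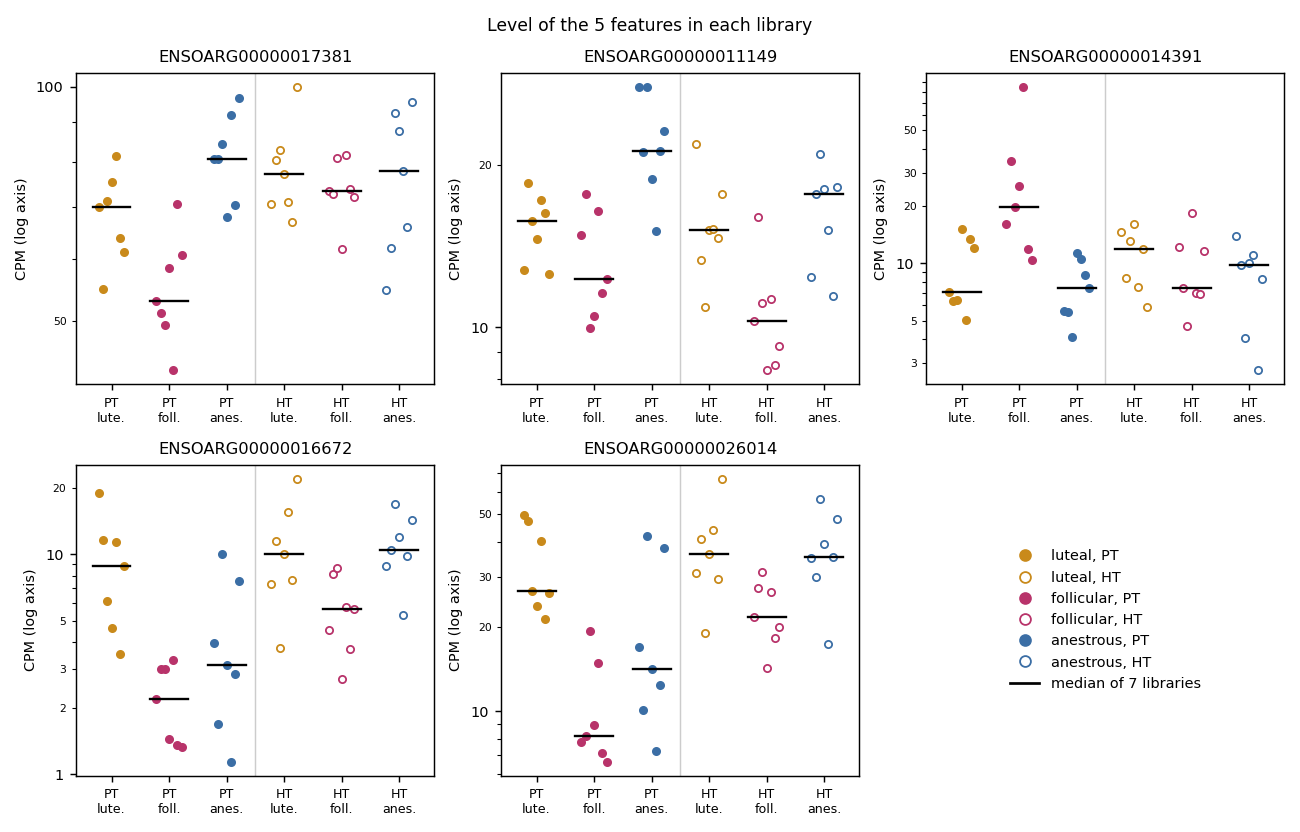
CPM on a log axis of each of the 5 features in each of the 42 libraries, by tissue (filled points PT, open points HT) and phase, with a line at the median of the 7 libraries. Among the 3 PT groups the follicular one has the lowest median in 4 panels and the highest in that of ENSOARG00000014391. Among the 3 HT groups the follicular one has the lowest median in each panel.

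ENSOARG00000017381 lay at 43.2, 53.0 and 70.6 CPM (lowest, median and highest library) in the follicular PT. The anestrous PT lay at 68.1, 80.7 and 96.7 CPM, and the luteal PT at 55.0, 70.1 and 81.6 CPM. Of the 7 follicular libraries, 6 lay below every anestrous one, and the exception was library 34. The follicular level was 1.49-fold below the anestrous one (log2 difference -0.57, 95% interval -0.80 to -0.34). The luteal phase lay between them, 0.30 above the follicular phase on the log2 scale (95% interval 0.07 to 0.53), and luteal minus anestrous was -0.27 (95% interval -0.50 to -0.04). As these are bulk samples, fewer cells of a type and less RNA per cell cannot be told apart, here or for the other features.

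ENSOARG00000011149 lay at 9.98, 12.3 and 17.7 CPM in the follicular PT. Its anestrous libraries lay at 15.1, 21.2 and 27.9 CPM, and its luteal ones at 12.5, 15.7 and 18.5 CPM. The groups overlapped, with 5 of 7 follicular libraries below every anestrous one. The follicular level was 1.67-fold below the anestrous one (log2 difference -0.74, 95% interval -1.05 to -0.42). The luteal PT was close to the follicular one: luteal minus follicular was 0.20 on the log2 scale with an interval of -0.11 to 0.52, and luteal minus anestrous was -0.53 (95% interval -0.85 to -0.22).

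ENSOARG00000014391 was the only one of the 5 with its highest PT level in the follicular phase. It lay at 10.4, 19.9 and 84.1 CPM there, against 4.10, 7.39 and 11.3 CPM in the anestrous and 5.02, 7.04 and 15.1 CPM in the luteal PT. The follicular libraries were themselves spread widely, with a coefficient of variation of 89.0%, and library 33 held the highest value. Of the 7, 6 lay above every anestrous library and 5 above every luteal one. The follicular level was 3.78-fold above the anestrous one (log2 difference 1.92, 95% interval 1.09 to 2.75), and luteal minus follicular was -1.64 (95% interval -2.46 to -0.82). Luteal and anestrous levels lay close together (log2 difference 0.28, 95% interval -0.54 to 1.09). Without library 33 the follicular minus anestrous value was 1.36 and the luteal minus follicular value -1.07.

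ENSOARG00000016672 had its highest PT level in the luteal phase. It lay at 3.52, 8.81 and 19.1 CPM in the luteal PT. The follicular PT lay at 1.34, 2.20 and 3.32 CPM, and the anestrous PT at 1.14, 3.15 and 10.005 CPM. All 7 luteal libraries lay above all 7 follicular ones, while the anestrous libraries covered the whole follicular range. The luteal level was 4.16-fold above the follicular one (log2 difference 2.05, 95% interval 1.15 to 2.96). Luteal minus anestrous was 1.10 (95% interval 0.23 to 1.97) and follicular minus anestrous was -0.95 (95% interval -1.85 to -0.06). The last value rested in part on anestrous library 38, without which it was -0.60.

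ENSOARG00000026014 showed the same order of phases. It lay at 21.3, 26.8 and 49.9 CPM in the luteal PT. The follicular PT lay at 6.63, 8.15 and 19.3 CPM, and the anestrous PT at 7.21, 14.1 and 41.9 CPM. The luteal and follicular ranges did not overlap. The luteal level was 3.23-fold above the follicular one (log2 difference 1.69, 95% interval 0.94 to 2.44), luteal minus anestrous was 0.74 (95% interval 0.01 to 1.47) and follicular minus anestrous was -0.95 (95% interval -1.69 to -0.21). In anestrus, libraries 38 and 42 held 41.9 and 37.9 CPM and the other 5 lay at 16.9 CPM or below. The same 2 libraries held the highest anestrous values of ENSOARG00000016672, at 10.005 and 7.55 CPM.

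These PT comparisons have a background against which the choice should be seen. With edgeR, 0% of the 16301 features had an adjusted p below 0.05 whichever 2 PT phases were compared. The lowest adjusted p was 0.471 for follicular minus anestrous, 0.469 for luteal minus follicular and 0.999 for luteal minus anestrous, with 1055, 1380 and 526 features at an unadjusted p below 0.05. DESeq2 called 3, 11 and 0 features in these comparisons and limma-voom 1, 0 and 0. The ranges of the 2 groups did not overlap for 0 of the 5 features in follicular minus anestrous (0.117% of all features), 2 of 5 in luteal minus follicular (0.0982%) and 0 of 5 in luteal minus anestrous (0.0245%). The rule used these libraries, so nothing is read from those counts. The last feature inside the choice for follicular minus anestrous, ENSOARG00000014391, had an unadjusted edgeR p of 8.67e-05, and the first outside, ENSOARG00000017001, had 0.000203 with a log2 difference of 0.54. For luteal minus follicular the corresponding values were 0.000115 for ENSOARG00000026014 and 0.000152 for ENSOARG00000009990, whose log2 difference was 0.80.

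The makeup of the PT libraries was also compared. The 10 largest features took 20.1 ± 2.40% of the counts in the follicular PT, 24.7 ± 4.33% in the anestrous and 23.8 ± 7.56% in the luteal PT (SD, n = 7 each). The ranges overlapped, at 15.9% to 22.2%, 17.6% to 29.4% and 14.9% to 35.2%, and a difference between phases was not tested. With that share as a covariate, follicular minus anestrous was -0.48 for ENSOARG00000017381, -0.70 for ENSOARG00000011149 and 1.77 for ENSOARG00000014391, and luteal minus follicular was 2.11 for ENSOARG00000016672 and 1.71 for ENSOARG00000026014.

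The next question was whether the hypothalamus shows the same shift. By point estimates the follicular HT lay below both other phases for all of the 5 features but ENSOARG00000014391, and no feature passed the adjusted test. For ENSOARG00000017381 the differences were small, at -0.06 in follicular minus anestrous and 0.08 in luteal minus follicular, with 95% intervals that held 0. For ENSOARG00000011149, ENSOARG00000016672 and ENSOARG00000026014 the follicular minus anestrous HT values were -0.62, -0.998 and -0.73 beside -0.74, -0.95 and -0.95 in the PT. In luteal minus follicular, the comparison that chose the last 2, the HT values were smaller, at 0.98 and 0.75 beside 2.05 and 1.69 in the PT. For ENSOARG00000011149 the HT value was the larger one there, at 0.54 beside 0.20 in the PT. Its luteal minus anestrous value was -0.08 in the HT and -0.53 in the PT. By point estimates its luteal level thus lay nearer the anestrous one in the HT and nearer the follicular one in the PT. With edgeR, 0 of the 5 features, as 0% of all 16350 tested, had an adjusted p under 0.05 in any of the 3 HT comparisons. At an unadjusted p under 0.05, ENSOARG00000011149, ENSOARG00000016672 and ENSOARG00000026014 were lower in the follicular HT in both comparisons that involve it. That is 3 of 5, where 10.3% of all features lay under that p in follicular minus anestrous (6.13% lower in the follicular phase) and 1.14% in luteal minus follicular (0.703% lower in the follicular phase). The comparisons share the follicular libraries, so they are not separate evidence, and 2 of the 3 features follow each other closely from library to library, as described further on. In luteal minus anestrous HT, 0 of 5 features had an unadjusted p under 0.05, against 4.44% of all features.

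ENSOARG00000011149 lay at 8.31, 10.3 and 15.99 CPM in the follicular HT. The anestrous HT lay at 11.4, 17.7 and 21.002 CPM and the luteal HT at 10.9, 15.1 and 21.9 CPM. Of the 7 follicular libraries, 6 lay below every anestrous one and 4 below every luteal one. Follicular minus anestrous was -0.62 on the log2 scale (95% interval -0.98 to -0.25, edgeR unadjusted p = 0.00199, adjusted p = 0.328). Luteal minus follicular was 0.54 (95% interval 0.17 to 0.90, edgeR unadjusted p = 0.00584, adjusted p = 0.9996). Luteal minus anestrous HT was -0.08 (95% interval -0.44 to 0.28).

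ENSOARG00000016672 lay at 2.71, 5.67 and 8.64 CPM in the follicular HT. The anestrous HT lay at 5.28, 10.5 and 16.8 CPM and the luteal HT at 3.75, 9.98 and 22.03 CPM. All 3 ranges overlapped, with 3 follicular libraries below every anestrous one and 4 luteal libraries above every follicular one. Follicular minus anestrous was -0.998 on the log2 scale (95% interval -1.68 to -0.31, edgeR unadjusted p = 0.00625, adjusted p = 0.381). Luteal minus follicular was 0.98 (95% interval 0.30 to 1.67, edgeR unadjusted p = 0.00678, adjusted p = 0.9996). The luteal and anestrous HT differed by -0.01 on the log2 scale (95% interval -0.69 to 0.66).

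ENSOARG00000026014 lay at 14.3, 21.6 and 31.1 CPM in the follicular HT. The anestrous HT lay at 17.3, 35.4 and 56.9 CPM and the luteal HT at 18.98, 36.1 and 67.02 CPM. Here 5 anestrous and 4 luteal libraries lay above every follicular one. Follicular minus anestrous was -0.73 (95% interval -1.25 to -0.21, edgeR unadjusted p = 0.00823, adjusted p = 0.411). Luteal minus follicular was 0.75 (95% interval 0.22 to 1.27, edgeR unadjusted p = 0.00716, adjusted p = 0.9996). The luteal and anestrous HT again lay close together (log2 difference 0.02, 95% interval -0.50 to 0.53).

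The other 2 features had no edgeR unadjusted p under 0.05 in the HT. ENSOARG00000017381 had 61.9, 73.4 and 81.7 CPM as the lowest, median and highest follicular HT values. Its anestrous HT values were 54.8, 77.9 and 95.5 CPM and its luteal ones 67.1, 77.2 and 99.8 CPM. Its follicular minus anestrous value was -0.06 (95% interval -0.33 to 0.20, edgeR adjusted p = 0.868), and luteal minus follicular was 0.08 (95% interval -0.18 to 0.35). ENSOARG00000014391 had 4.65, 7.41 and 18.4 CPM in the follicular HT, with 2.74, 9.78 and 13.9 CPM for anestrus and 5.91, 11.9 and 16.1 CPM for the luteal phase. Its follicular minus anestrous value was 0.18 (95% interval -0.53 to 0.89, edgeR adjusted p = 0.860), and luteal minus follicular was 0.17 (95% interval -0.54 to 0.88). The 3 phases overlapped widely for both features. Luteal minus anestrous HT was 0.02 for ENSOARG00000017381 and 0.35 for ENSOARG00000014391 (95% intervals -0.24 to 0.28 and -0.36 to 1.06).

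**Figure D2:**
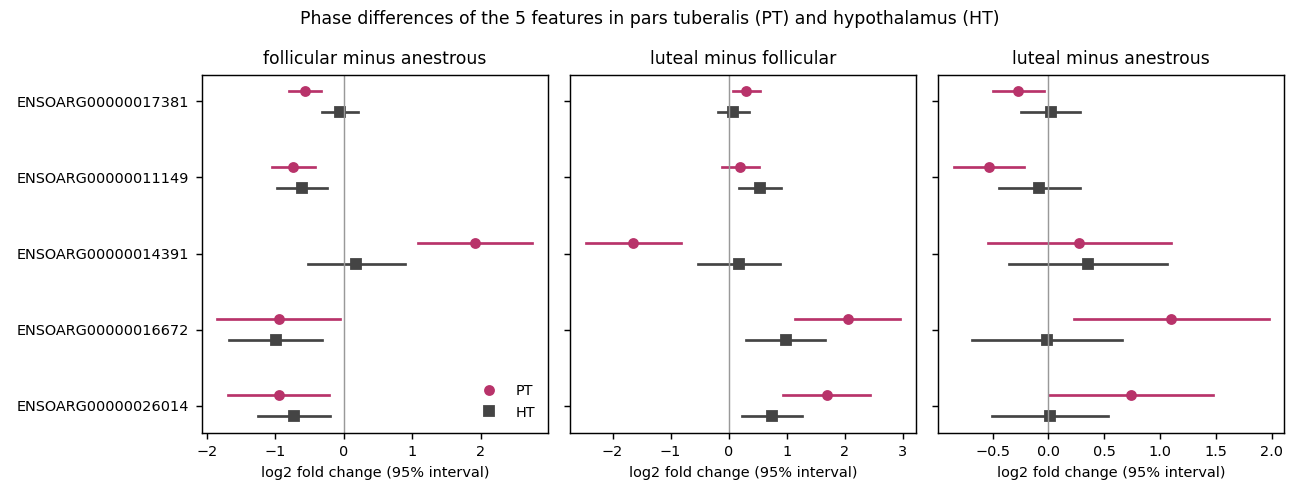
Log2 fold change with its 95% interval for each of the 5 features (rows) in 3 phase comparisons (panels), in the PT (circles) and the HT (squares). In follicular minus anestrous the PT and HT values lie side by side for ENSOARG00000011149 (-0.74 and -0.62), ENSOARG00000016672 (-0.95 and -0.998) and ENSOARG00000026014 (-0.95 and -0.73), and apart for ENSOARG00000017381 (-0.57 and -0.06) and ENSOARG00000014391 (1.92 and 0.18). In luteal minus follicular the points lie apart for ENSOARG00000016672 (2.05 and 0.98), ENSOARG00000026014 (1.69 and 0.75) and ENSOARG00000014391 (-1.64 and 0.17). The intervals of ENSOARG00000016672 and of ENSOARG00000026014 overlap between the tissues there. The PT libraries chose the features, which favours large PT values, so no difference between the tissues is read from the gaps.

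With edgeR on all 21 HT libraries no feature was called, with 1688, 186 and 726 features at an unadjusted p below 0.05 in the 3 comparisons, and 2 of the 5 features were called in follicular minus anestrous under other settings. Limma-voom with sample weights called 9.44% of all features in follicular minus anestrous HT, among them ENSOARG00000011149 (adjusted p = 0.0137) and ENSOARG00000016672 (adjusted p = 0.0488). Anestrous HT library 15 stood apart, with 14.8% of its counts in the 10 largest features against 24.9% to 40.8% in the other 6. Without it, edgeR called 5.42% of all features, among them ENSOARG00000011149 (log2 difference -0.65, adjusted p = 0.0397), while ENSOARG00000016672 and ENSOARG00000026014 had adjusted p = 0.0784 and 0.102. The unadjusted edgeR p of the 3 features was 0.00141, 0.00762 and 0.0131 without library 15, beside 0.00199, 0.00625 and 0.00823 with it. The adjusted p thus fell for each, while the unadjusted p rose for ENSOARG00000016672 and ENSOARG00000026014. DESeq2 on all libraries called 0.416% of all features and 0 of the 5 (adjusted p = 0.0791, 0.154 and 0.195 for ENSOARG00000011149, ENSOARG00000016672 and ENSOARG00000026014). With the counts' share in the 10 largest features in the model, the HT values were -0.56, -0.99 and -0.74 for the same features, and 0 were called. Leaving out each library in turn gave -0.74 to -0.55 for ENSOARG00000011149, -1.14 to -0.87 for ENSOARG00000016672 and -0.85 to -0.60 for ENSOARG00000026014. In the HT comparisons, the 2 groups' ranges did not overlap for 0 of 5 features each time, against 0.171% of all features in follicular minus anestrous, 0.0122% in luteal minus follicular and 0.0245% in luteal minus anestrous.

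The PT and HT phase differences were set side by side in a fit of all 42 libraries. Their difference is not tested, since the PT side chose the features. The choice favours PT values far from 0, the intervals take no account of it, and whether they hold 0 is not read as a result. For follicular minus anestrous, the PT value minus the HT value was -0.51 (95% interval -0.85 to -0.18) for ENSOARG00000017381 and 1.74 (95% interval 0.65 to 2.82) for ENSOARG00000014391. It was -0.13 (95% interval -0.59 to 0.34) for ENSOARG00000011149, 0.03 (95% interval -1.12 to 1.19) for ENSOARG00000016672 and -0.23 (95% interval -1.14 to 0.68) for ENSOARG00000026014. For luteal minus follicular it was 1.07 (95% interval -0.05 to 2.19) for ENSOARG00000016672 and 0.95 (95% interval 0.03 to 1.86) for ENSOARG00000026014. It was -1.82 (95% interval -2.90 to -0.73) for ENSOARG00000014391, 0.22 (95% interval -0.12 to 0.56) for ENSOARG00000017381 and -0.34 (95% interval -0.81 to 0.13) for ENSOARG00000011149. For luteal minus anestrous it was 1.10 (95% interval -0.01 to 2.22) for ENSOARG00000016672, 0.72 (95% interval -0.19 to 1.63) for ENSOARG00000026014 and -0.46 (95% interval -0.93 to 0.01) for ENSOARG00000011149. For the other 2 it was -0.29 (95% interval -0.63 to 0.04, ENSOARG00000017381) and -0.08 (95% interval -1.17 to 1.0015, ENSOARG00000014391).

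Averaged over the 3 phases, 4 of the 5 features passed the test between the tissues, where 75.0% of the 17296 features tested did so. The share among the features is near that background. The PT side of this test holds the libraries that chose the features. The average over phases is another contrast than the phase differences, but it shares their values and their spread, so these p-values are not independent of the choice. ENSOARG00000016672 was lower in the PT (log2 difference -0.97 ± 0.23 SE, edgeR adjusted p = 0.000215), as was ENSOARG00000026014 (-0.74 ± 0.18 SE, edgeR adjusted p = 0.000507). ENSOARG00000011149 was higher in the PT (0.25 ± 0.09 SE, edgeR adjusted p = 0.0167) and ENSOARG00000017381 lower (-0.17 ± 0.07 SE, edgeR adjusted p = 0.0204). ENSOARG00000014391 had a difference of 0.38 (95% interval -0.06 to 0.82, edgeR adjusted p = 0.109). The call of ENSOARG00000011149 was lost with limma-voom (adjusted p = 0.102). That of ENSOARG00000017381 was lost with no filter on low counts, with a filter on CPM and with a term for the counts held by the 10 largest features (adjusted p = 0.0569, 0.0597 and 0.490, the last with a log2 difference of -0.05). For ENSOARG00000016672 and ENSOARG00000026014 the tissue gap in mean CPM was larger in the follicular and anestrous phases than in the luteal phase, which was not tested. Their luteal PT lay at medians of 8.81 and 26.8 CPM beside 9.98 and 36.1 CPM in the luteal HT, with overlapping ranges.

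ENSOARG00000016672 and ENSOARG00000026014 varied together from library to library within phases. After the mean of each phase was taken out, their log2 CPM had Pearson's r = 0.90 in the PT and 0.95 in the HT over 21 libraries each (Spearman's rho 0.92 and 0.95). The permutation p was 1e-05 for each, the smallest that 100000 permutations within phases can give, with a Benjamini-Hochberg adjusted p of 0.0001 over 20 relations (10 pairs of features in 2 tissues). The same PT libraries chose both features by 1 comparison, and features that vary together tend to be chosen together. The PT permutation p is therefore not independent of the choice. Without the 2 libraries farthest from the median of ENSOARG00000016672, r was 0.85 and 0.93. The ratio of their CPM was not fixed. ENSOARG00000026014 held 2.62 to 6.45 times the CPM of ENSOARG00000016672 over the 42 libraries, a ratio that is not corrected for gene length. No source used here says how reads that map to more than 1 gene were counted, so the values of both IDs are uncertain in that respect, and read sharing was not tested.

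**Figure D3:**
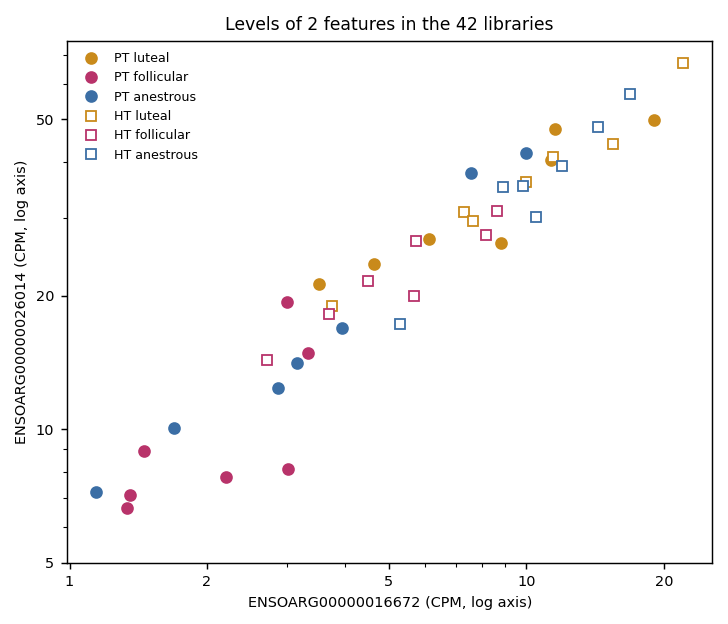
CPM of ENSOARG00000026014 against that of ENSOARG00000016672 in the 42 libraries, both on log axes, with PT as filled circles, HT as open squares and a colour for each phase. All groups lie along 1 band, with the follicular PT near its lower end, between 1.34 and 3.32 CPM on the horizontal axis. Some anestrous PT libraries lie at that end too, the lowest at 1.14 CPM.

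The remaining pairs were looser. In the HT, ENSOARG00000014391 moved against ENSOARG00000016672 (r = -0.60, rho = -0.61, permutation p = 0.00415 and 0.00577, adjusted p = 0.0272 and 0.0287) and against ENSOARG00000026014 (r = -0.61, rho = -0.60, permutation p = 0.00544 and 0.00776, adjusted p = 0.0272 and 0.0287). ENSOARG00000011149 moved with ENSOARG00000016672 in the HT (r = 0.57, rho = 0.61, permutation p = 0.0115 and 0.00595, adjusted p = 0.046 and 0.0287). Without the 2 farthest libraries these r were -0.68, -0.68 and 0.69. In the PT the same 3 pairs had r = -0.13, -0.11 and 0.43 (rho = -0.14, -0.11 and 0.45, permutation adjusted p of r = 0.649, 0.668 and 0.124, and r = -0.25, -0.29 and 0.28 without the 2 farthest libraries). Whether the tissues differ in this was not tested. ENSOARG00000011149 with ENSOARG00000026014 in the HT passed by rank only (r = 0.52, rho = 0.59, permutation p = 0.0232 and 0.00862, adjusted p = 0.0773 and 0.0287). By pair, 1 of 10 pairs passed the adjusted threshold in the PT and 4 of 10 in the HT by Pearson's r. Each of these HT pairs held ENSOARG00000016672, ENSOARG00000026014 or both. As those features follow each other at r = 0.95 in the HT, the pairs are not separate relations.

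**Figure D4:**
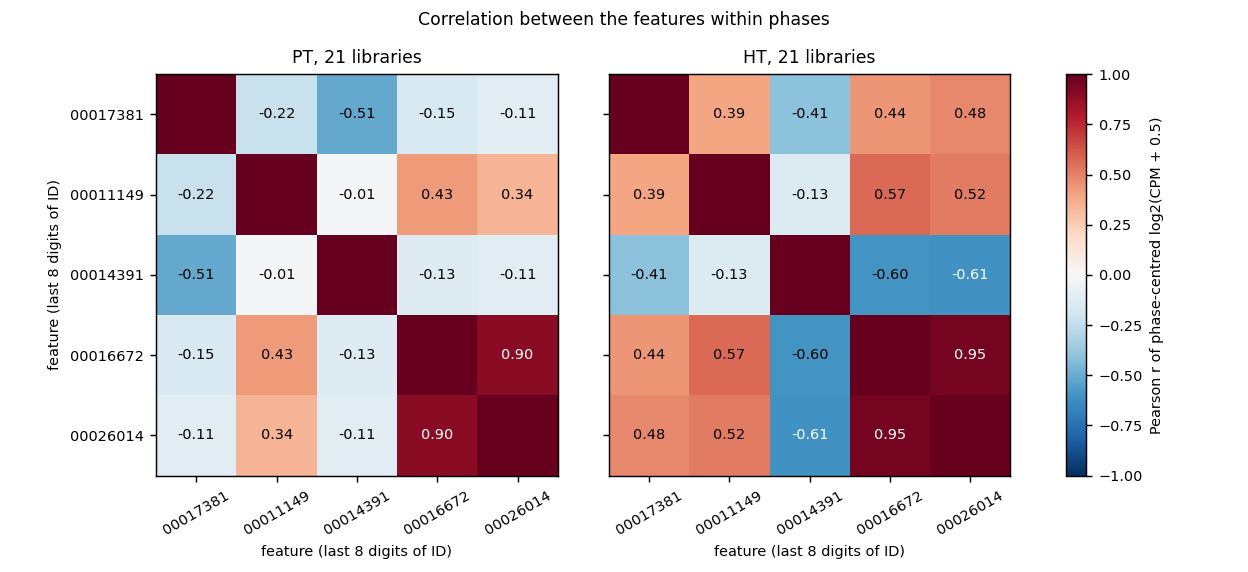
Pearson's r between the 5 features over 21 libraries after each phase's mean was taken out, in the PT (left) and the HT (right, same rows), with colour from -1 to 1. The pair of ENSOARG00000016672 and ENSOARG00000026014 stands at 0.90 and 0.95, and ENSOARG00000014391 has negative values with both in the HT (-0.60 and -0.61).

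The pattern of the features over the 21 PT libraries, phases included, was also set beside that of 14469 other features with a mean of at least 1 CPM there, as a description. ENSOARG00000016672 and ENSOARG00000026014 were each other's nearest feature (r = 0.95, and 0.97 over the 21 HT libraries). The next nearest to both was ENSOARG00000009554 (r = 0.75 and 0.75), with PT means of 8.60 CPM (luteal), 3.51 CPM (follicular) and 5.06 CPM (anestrous). Its HT group means were 0.326 to 0.385 CPM and its r was -0.02 and -0.01. Nearest to ENSOARG00000014391 were ENSOARG00000006742 (r = 0.84, HT r = 0.29) and ENSOARG00000010086 (r = 0.83, HT r = 0.15). The first of these lay at 20.3 ± 5.56 CPM in the follicular PT against 15.3 ± 1.68 CPM in the anestrous PT (SD, n = 7 each). Without follicular library 33, which held its highest value too, its follicular mean was 18.3 ± 1.67 CPM (SD, n = 6), and the r of ENSOARG00000014391 with these features was 0.71 and 0.70. Nearest to ENSOARG00000017381 were ENSOARG00000018556 (r = 0.77, HT r = 0.44) and ENSOARG00000003775 (r = 0.74, HT r = 0.40), and nearest to ENSOARG00000011149 were ENSOARG00000015485 (r = 0.78, HT r = 0.31) and ENSOARG00000018545 (r = 0.71, HT r = 0.13). These are the highest of 14469 values each, and the libraries share phase, depth and makeup. ENSOARG00000015485 lay low, with a median of 0.754 CPM in the follicular PT. Its lowest library held 0 CPM in the follicular HT and in the anestrous HT.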

How the data were processed

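The authors deposited their read counts in 1 table, unnormalized, with Ensembl sheep gene IDs as rows and the 42 libraries as columns. There were 0 columns of no sample. The submitters' processing notes name HISAT2 2.1.0 and StringTie 1.3.5 among other tools, without saying what each did. For genome build, annotation release, strand and shared reads, the setting is not given in the sources used here.

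Phase and tissue differences were fitted in R 4.3.3 with edgeR 4.0.16 (robust quasi-likelihood fits, two-sided F tests; TMM scaling; filterByExpr with a minimum count of 10; Benjamini-Hochberg adjustment over all features tested, threshold 0.05). Phase comparisons used 1 fit per tissue with 21 libraries, and tissue comparisons 1 fit of 42. CPM use the TMM-adjusted library sizes of the 42-library fit, and log2 values add 0.5. Correlations used 100000 two-sided permutations within phases. Alternatives were RLE scaling, DESeq2 1.42.0, limma-voom (limma 3.58.1), other filters, only the compared phases, a covariate and leaving out each library. The edgeR and correlation steps were tested on simulated data.

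The text names all 5 features and, for each, the 2 features with the highest r over the PT libraries. Members and tests were chosen with earlier results of these data known. Marker lists needed gene symbols and were not used.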

Additional observations from a re-analysis of the deposited data

Results flagged for a closer look

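In 30 groups of 7 libraries (5 features in 6 groups), 2 held a library whose gap to the next was above Dixon's 95% critical value of 0.568 as a share of the group's range. This is on the CPM scale. On log2 CPM, a scale tried after the results were seen, 0 of the 30 groups did, with 0.43 for library 33 and 0.538 for library 9 in the groups named here. Chance gives such a gap in about 1 of 20 groups. ENSOARG00000014391 lay at 84.1 CPM in follicular PT library 33 (gap over range 0.673), where the other 6 libraries lay at 10.4 to 34.5 CPM with a mean of 19.7 ± 9.07 CPM (SD). ENSOARG00000011149 lay at 15.99 CPM in follicular HT library 9 (gap over range 0.615), where the other 6 lay at 8.31 to 11.3 CPM with a mean of 9.78 ± 1.28 CPM (SD). Without library 9, follicular minus anestrous HT was -0.74 for ENSOARG00000011149.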

How the results depend on the processing

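The number of features called by edgeR in follicular minus anestrous HT was 0, and 68 with DESeq2 and 1544 with limma-voom. Leaving out each library in turn gave 0 to 890, the latter without library 15. DESeq2 called 3 in luteal minus anestrous HT, 3 in follicular minus anestrous PT and 11 in luteal minus follicular PT, and limma-voom called 1 in follicular minus anestrous PT. The causes were not tested. Of 320 values of the 5 features' HT phase differences under other settings, 18 changed sign, and 0 of 320 did so in the PT. The features were chosen for large PT differences in the same libraries, so nothing is read from the PT count beside the HT one. ENSOARG00000017381 had 0.0231 in follicular minus anestrous HT with a term for the counts held by the 10 largest features, and -0.12 in luteal minus anestrous HT with limma-voom. Leaving out each library in turn gave -0.0655 to 0.36 for ENSOARG00000014391 in follicular minus anestrous HT, and in luteal minus anestrous HT -0.27 to 0.13 for ENSOARG00000016672, -0.0484 to 0.0766 for ENSOARG00000017381 and -0.18 to 0.15 for ENSOARG00000026014. The phase-centred r of ENSOARG00000017381 with ENSOARG00000026014 in the PT was -0.11, and 0.0372 without the 2 farthest libraries. A contrast chosen after the results were seen, follicular against the mean of the other phases, gave -0.58, -0.99 and -0.74 in the HT for ENSOARG00000011149, ENSOARG00000016672 and ENSOARG00000026014 (edgeR adjusted p = 0.773 for each). No paired analysis was possible because the labels number the libraries 1 to 42 and tie none to a ewe.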

Other observations

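The level of ENSOARG00000017381 within phases was set against how much of a library the 10 largest features held, a relation examined after the results were seen. Over 21 libraries Pearson's r was 0.50 in the PT (rho = 0.44, permutation p = 0.019 and 0.0521) and 0.53 in the HT (rho = 0.45, permutation p = 0.028 and 0.0634), with an adjusted p of 0.14 for both r and 0.317 for both rho over 10 relations, so that neither passed. Without the 2 libraries farthest from the median share, r was 0.45 and 0.38. The other 4 features had r between -0.23 and 0.21 with that quantity (permutation adjusted p from 0.654 to 0.691).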
